A study of Arabidopsis thaliana with 39 samples.

Results

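The small RNAs described here are all 25606 reads listed for rosette leaves of SALK_059379, an Arabidopsis T-DNA line, on its transformation plasmid pROK2. They make up 25606 of the 28781 small RNA reads listed for both lines of the series, the other 3175 being those of SAIL_232 leaves on plasmid pCSA110. Every read was kept and sorted by the number of its bases, which gave a 21 nt class of 4421 reads, a 22 nt class of 6018, a 23 nt class of 2283 and a 24 nt class of 10076. These 4 classes held 22798 reads, 89.0% of the library (95% interval 88.6 to 89.4). The study sequenced and mapped large T-DNA insertions and profiled chromatin marks in the genome around insertion sites. On the plasmid sequences it measured small RNAs, transcripts and DNA methylation. The SALK_059379 material was a pool of segregating plants in the Columbia background, grown in soil and not treated, and the SAIL_232 leaves, which are used only for a short comparison, were from untreated plants with another T-DNA, in the Columbia strain Col-3, which also carries an inversion that Col-0 lacks. The insertions of SALK_059379 are concatemers of T-DNA and vector backbone, so the number of genomic copies of each plasmid stretch is unknown, and a high count at one place and a high copy number there cannot be told apart. The paper states that small RNA libraries were sequenced in duplicate on 2 lanes, but the reads are listed as 1 library and are not separated by run. No value therefore has a replicate, and no test between samples was made.

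Plants cut double-stranded RNA into small interfering RNAs (siRNAs) with Dicer-like enzymes. DCL4 makes the 21 nt and DCL2 the 22 nt siRNAs, which are loaded mostly into AGO1 and guide the cutting of transcripts, and DCL3 makes the 24 nt siRNAs, which are loaded into AGO4-clade proteins and guide DNA methylation. A Dicer product is a duplex whose strands each overhang the other at the 3′ end by 2 nt, and RNA-dependent RNA polymerases such as RDR6 or RDR2 supply the second strand. Argonaute proteins sort siRNAs partly by the first base, AGO1 taking those that begin with U and AGO4 those that begin with A. Transgenes that are present in many copies are known targets of both routes.

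The class of 24 nt was the most frequent, with 44.2% of the reads of 21 to 24 nt (43.6 to 44.8), against 26.4% for 22 nt, 19.4% for 21 nt and 10.01% for 23 nt. When identical reads were counted once, there were 2830 distinct reads of 24 nt, 2178 of 22 nt, 1664 of 21 nt and 1219 of 23 nt, and the share of 24 nt was 35.9%. Each distinct read was thus listed 3.56 times on average at 24 nt, 2.76 times at 22 nt, 2.66 times at 21 nt and 1.87 times at 23 nt. Reads lay on both strands in every class, and the plus strand held 57.7% at 21 nt, 54.2% at 22 nt, 57.6% at 23 nt and 56.7% at 24 nt. Neighbouring lengths were far rarer, with 527 reads of 20 nt and 879 of 25 nt. Intervals are exact 95% intervals and cover counting error only, since reads from PCR are not independent molecules.

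The classes were next compared along the plasmid, which has 12883 bp and was divided into 52 windows of 250 nt by the leftmost base of each read. Its T-DNA spans positions 6113 to 10430, both border repeats included, and positions 1 to 6112 and 10431 to 12883 are vector backbone. All 4 classes had reads in all 52 windows. The lowest, median and highest window held 7, 55 and 658 reads of 21 nt, 14, 83 and 832 of 22 nt, 1, 42 and 134 of 23 nt, and 18, 133.5 and 761 of 24 nt. Counting noise alone would give 0.792% of the variance between windows at 21 nt, 0.687% at 22 nt, 3.34% at 23 nt and 0.671% at 24 nt. The unevenness of the profiles was therefore much larger than counting error.

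**Figure D1:**
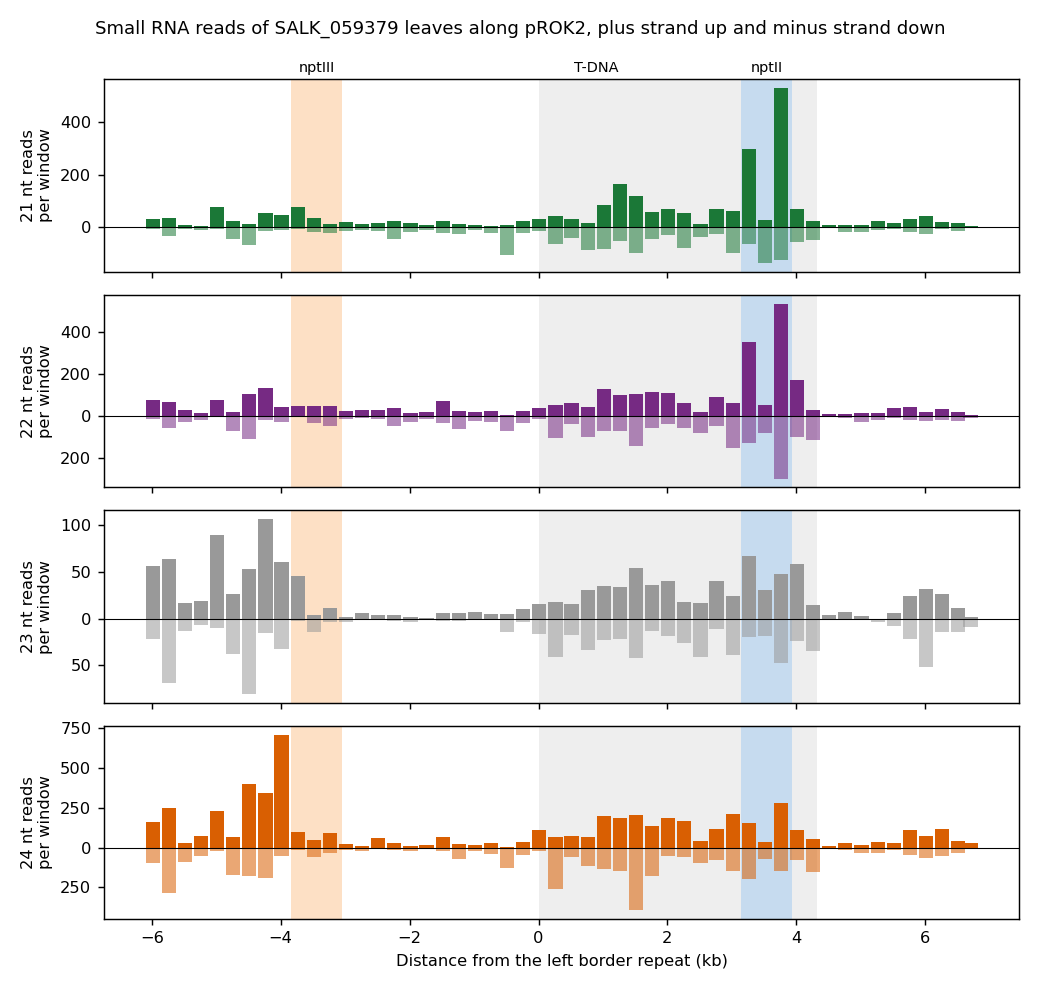
Reads per 250 nt window (y axis, plus strand above and minus strand below 0, each panel with its own scale) against the distance of the window from the left border repeat in kb, for 21, 22, 23 and 24 nt reads of the 1 SALK_059379 library. The 21 and 22 nt reads peak on nptII, where the highest windows hold 658 and 832 reads, and the 24 nt reads peak in the backbone upstream of nptIII, where the highest window holds 761 reads. In distinct reads, which are not drawn, none of these windows is the highest of its class.

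Over the whole plasmid the profiles agreed best within 2 pairs of neighbouring lengths, an order that did not hold within either part of the plasmid. Across the 52 windows, Pearson's r was 0.96 between 21 and 22 nt (Spearman's rho 0.87) and 0.86 between 23 and 24 nt (rho 0.92). The pairs that cross these groups had r of 0.45 for 21 and 23 nt, 0.46 for 21 and 24 nt, 0.52 for 22 and 23 nt and 0.50 for 22 and 24 nt, with rho from 0.70 to 0.81. The windows share 1 library, its unknown copy numbers and the base composition of the plasmid, so these coefficients describe this library. With distinct reads r was 0.93 for 21 and 22 nt and 0.94 for 23 and 24 nt, against 0.67 to 0.81 for the crossing pairs. In the 16 windows wholly on the T-DNA, r was 0.97 for 21 and 22 nt but 0.68 for 23 and 24 nt, where 22 and 23 nt reached 0.73. In the 34 windows wholly on the backbone, r was 0.88 for 23 and 24 nt but 0.62 for 21 and 22 nt, where 22 and 23 nt and 22 and 24 nt both reached 0.71.

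By read count, the highest windows differed between the short and the long classes. Window 9751 to 10000, inside the coding region of nptII (9252 to 10046, minus strand), the kanamycin resistance gene of the T-DNA, was the first for both short classes, with 658 reads of 21 nt, 14.9% of that class (13.8 to 16.0), and 832 of 22 nt, 13.8% (13.0 to 14.7). Window 9251 to 9500, at the end of the same gene, was the next for both, with 362 reads of 21 nt and 479 of 22 nt. The third place was window 7251 to 7500 for 21 nt, with 218 reads, and window 10001 to 10250 for 22 nt, with 268. None of these was among the highest 3 of the longer classes, although window 9751 to 10000 also held 430 reads of 24 nt and 94 of 23 nt. Plus-strand reads that begin at 9899 gave 498 of its 658 reads of 21 nt, and those at 9898 gave 422 of its 832 of 22 nt. In distinct reads it was not the highest window. It held 67 of 21 nt, against 90 in window 7501 to 7750, and 97 of 22 nt, against 100 in window 10001 to 10250. The 24 nt reads had their highest window at 2001 to 2250 in the backbone, with 761 reads. It lies just before nptIII (2276 to 3070, plus strand), the bacterial kanamycin resistance gene of the vector. The next were 7501 to 7750 on the T-DNA with 596 and 1501 to 1750 in the backbone with 578. In distinct reads of 24 nt, window 1501 to 1750 held 115, window 7501 to 7750 held 111 and window 2001 to 2250 held 69. Window 7501 to 7750, the highest in distinct reads of 21 nt, was thus near the highest at 24 nt too. The 23 nt reads had all their first 3 windows in the backbone stretch before nptIII, at 1501 to 1750 with 134 reads, 251 to 500 with 133 and 1751 to 2000 with 121.

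The mixture of lengths changed along the plasmid accordingly. Of the 48 windows with at least 100 reads of 21 to 24 nt, 24 nt was the most frequent length in 38, 22 nt in 9, 21 nt in 1 and 23 nt in 0. The share of 24 nt ranged from 21.4% (19.6 to 23.2) in window 9751 to 10000 to 77.3% (74.5 to 79.8) in window 2001 to 2250, with a median of 43.9% over the 48 windows. In distinct reads the highest of these windows had a 24 nt share of 37.9% (30.8 to 45.4) and the lowest 26.9% (21.8 to 32.6), and a single read, at 2003 to 2026, gave 572 of the 761 reads of 24 nt in the highest. By element, 24 nt reads made up 60.8% (59.5 to 62.1) of the backbone upstream of nptIII, 40.9% (37.5 to 44.3) of nptIII itself and 36.5% (34.4 to 38.6) of the backbone from the end of nptIII to the left border. They made up 37.9% (37.1 to 38.8) of the T-DNA, 26.3% (24.9 to 27.6) of nptII and 46.8% (44.5 to 49.2) of the backbone on the right border side. The 23 nt class made up 13.9% upstream of nptIII and 14.2% on the right border side, against 4.99% between nptIII and the left border and 6.20% on nptII. It did not follow 24 nt everywhere, since between the 2 NOSt copies 23 nt made up 8.18% and 24 nt 46.4%, and its highest shares among these elements were on the T-DNA, with 17.1% in the second NOSt and 15.0% in the first. The 2 copies are identical, so a read inside 1 matches both, and their shares are not separate measurements. Reads that match more than 1 place made up from 2.14% of the 22 nt class to 3.46% of the 23 nt class. In distinct reads the contrast was smaller, with 24 nt at 42.7% (40.4 to 45.1) upstream of nptIII, 30.8% (27.8 to 33.8) between nptIII and the left border and 29.6% (26.4 to 32.9) on nptII. The share of 24 nt upstream of nptIII was thus the higher one in distinct reads as well, and the copies of each read widened the gap.

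**Figure D2:**
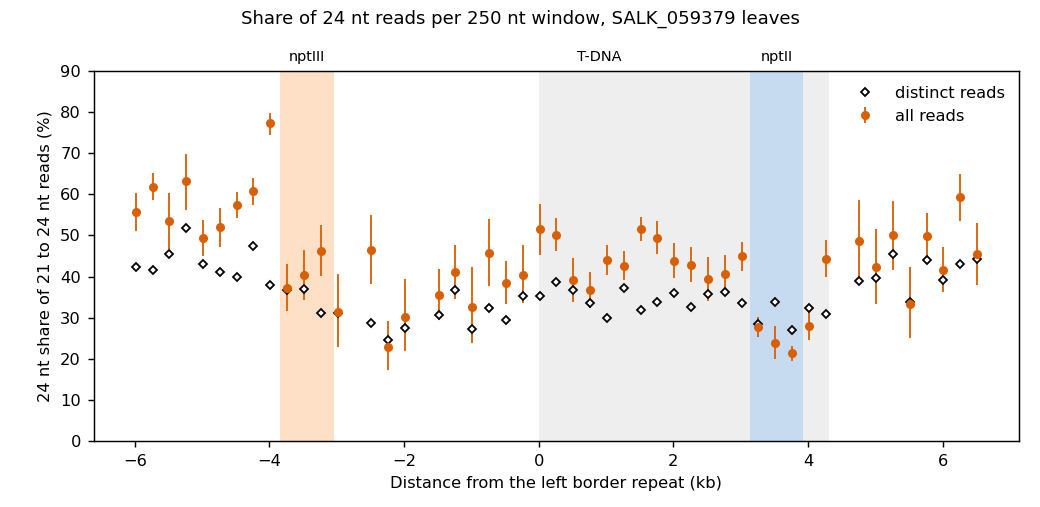
Share of 24 nt reads among reads of 21 to 24 nt (y axis, %) in the 48 windows with at least 100 such reads, against distance from the left border repeat in kb. Filled points are all reads with exact 95% intervals, and open points are distinct reads without intervals. The share falls to 21.4% on nptII and reaches 77.3% just upstream of nptIII, while distinct reads vary less.

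Many windows leaned to 1 strand. A window was called one-sided when the exact interval of its plus-strand share did not hold 50%, among windows with at least 20 reads of the class. This was so in 28 of 47 windows for 21 nt (59.6%), 28 of 49 for 22 nt (57.1%), 16 of 32 for 23 nt (50%) and 35 of 51 for 24 nt (68.6%), and the deeper classes can pass this rule with a smaller imbalance. The median distance of the plus share from 50% was 17.1 percentage points at 21 nt, 14.1 at 22 nt, 12.3 at 23 nt and 15.1 at 24 nt. Of the one-sided windows, the plus strand led 15 of 28 for 21 nt, 16 of 28 for 22 nt, 11 of 16 for 23 nt and 22 of 35 for 24 nt. With identical reads counted once, one-sided windows fell to 9 of 38, 10 of 45, 8 of 29 and 13 of 43 for 21, 22, 23 and 24 nt. Fewer reads per window widen the intervals, so part of this fall is built into the count. The median distance from 50% in distinct reads was 7.89 percentage points at 21 nt, 9.15 at 22 nt, 11.1 at 23 nt and 8.33 at 24 nt, which at 23 nt was close to the value of all reads.

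The classes leaned the same way to different degrees. The plus-strand shares of 21 and 22 nt reads correlated with r of 0.78 over the 46 windows that had enough reads of both, and in all 18 windows where both were one-sided they took the same side. For 22 and 24 nt, r was 0.70 over 49 windows, with the same side in 23 of 26. For 21 and 24 nt, r was 0.56 over 47 windows, with the same side in 19 of 23. The agreement was lowest between 23 and 24 nt, with r of 0.47 over 32 windows and the same side in 11 of 14, and r was 0.71 for 21 and 23 nt and 0.81 for 22 and 23 nt. In 16 windows the 21, 22 and 24 nt classes were all one-sided to the same strand, 8 to the plus and 8 to the minus strand. The strongest of these lay in the backbone. In window 1001 to 1250 the plus strand held 77 of 82 reads of 21 nt, 73 of 79 of 22 nt, 89 of 99 of 23 nt and 230 of 253 of 24 nt. In window 2251 to 2500, at the start of nptIII, it held 78 of 83, 47 of 53, 45 of 48 and 96 of 109. In window 5501 to 5750 the minus strand dominated, and the plus strand held 10 of 114 reads of 21 nt, 5 of 80 of 22 nt, 5 of 19 of 23 nt and 7 of 133 of 24 nt. The lean in that window was also present in distinct reads, of which 7 of 25, 4 of 19, 3 of 9 and 5 of 22 were on the plus strand.

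In 6 windows at least 1 pair of classes leaned to opposite strands, and in 5 of them the 24 nt class opposed a shorter one by the interval rule. The widest gap was in window 1501 to 1750, upstream of nptIII, where the plus strand held 400 of 578 reads of 24 nt (69.2%, 65.3 to 72.9) and 14 of 81 of 21 nt (17.3%, 9.78 to 27.3), with 22 nt in between at 105 of 214. One plus-strand read of 24 nt, at 1622 to 1645, gave 220 of those 400 reads. In distinct reads the plus strand held 48 of 115 of 24 nt and 10 of 43 of 21 nt. On nptII, window 9251 to 9500 had 43.7% of 24 nt reads on the plus strand (38.4 to 49.0) and 82.6% of 21 nt (78.3 to 86.4). In distinct reads of that window the shares were closer, with 36 of 74 for 24 nt and 38 of 66 for 21 nt. The remaining windows with opposite sides were 7751 to 8000, 8251 to 8500, 9001 to 9250 and 12001 to 12250.

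**Figure D3:**
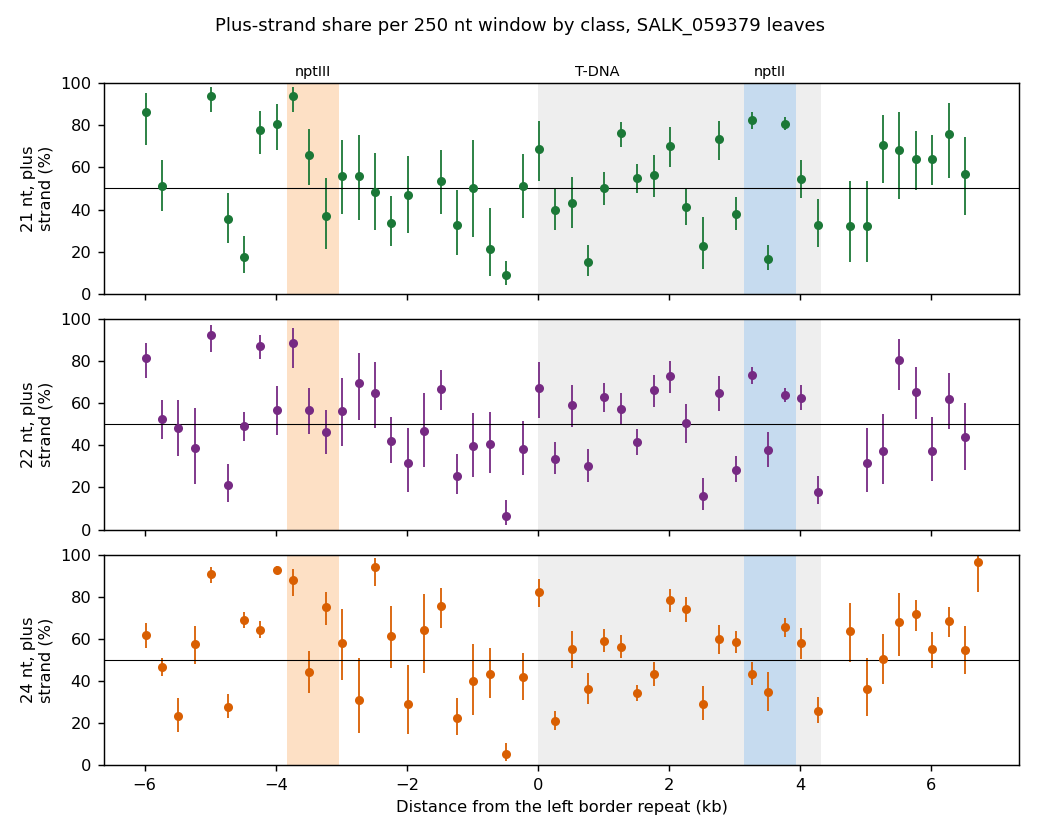
Plus-strand share (y axis, %) of 21, 22 and 24 nt reads in each 250 nt window with at least 20 reads of the class, with exact 95% intervals, against distance from the left border repeat in kb; the horizontal line marks 50%. All 3 classes are almost wholly on the minus strand in window 5501 to 5750, on the backbone near the left border, at 8.77%, 6.25% and 5.26% plus strand.

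Whether reads of the same length paired as Dicer products was measured for every offset between opposite-strand reads from -20 to 16 nt. At an offset of -2 nt both strands have a 2 nt 3′ overhang. For each offset, the smaller of the plus and minus counts was summed over the plasmid. The 22 nt class gave 180 pairs at this offset, the highest of all 37 offsets, against a median of 116.5 and a highest value of 163 at the others, a ratio of 1.55 to the median. It was also the highest when each pair of start positions counted once, with 124 against a median of 88.5 and a highest value of 116. The 24 nt class gave 243 pairs, against a median of 202 and a highest value of 257 at -4 nt, and ranked 4 of 37. Counted by start positions it ranked 1, with 170 against a median of 134.5. The 21 nt class gave 80 pairs against a median of 63.5 and ranked 5, below a value of 95 at 16 nt, and the 23 nt class gave 35 against a median of 37. Only at 22 nt was the offset of 2 nt overhangs thus above every other by both counts.

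Counting the smaller side of each pair on both strands, the matched reads made up 5.98% at 22 nt, 4.82% at 24 nt, 3.62% at 21 nt and 3.07% at 23 nt. Counting every read whose partner position held at least 1 read, the share was 11.8% at 22 nt, 13.6% at 24 nt, 7.65% at 21 nt and 6.395% at 23 nt. Both shares are for the offset of -2 nt alone and were not computed for other offsets or at equal depth. The other offsets had median pair counts of 116.5 at 22 nt, 202 at 24 nt, 63.5 at 21 nt and 37 at 23 nt. These shares are therefore not shares of Dicer duplexes. The largest pairs were on the T-DNA for 21 and 22 nt. At 22 nt, 10 plus-strand reads at 9252 to 9273 faced 13 minus-strand reads at 9250 to 9271, where the coding region of nptII ends, and 9 plus-strand reads at 7369 to 7390 faced 11 at 7367 to 7388. The next pair had 5 reads on each strand, at 9249 to 9270 and 9247 to 9268. The 21 nt pairs began at 2 of the same places, with 9 plus-strand reads at 9252 to 9272 facing 3 at 9250 to 9270, and 6 at 7369 to 7389 facing 3 at 7367 to 7387. The largest 21 nt pair, 15 plus-strand reads at 7679 to 7699 facing 6 at 7677 to 7697, shared its plus-strand 3′ end with the largest 24 nt pair, 28 reads at 7676 to 7699 facing 6 at 7674 to 7697. The other 24 nt pairs named by rank were 19 reads at 441 to 464 facing 5 at 439 to 462, and 65 at 9249 to 9272 facing 5 at 9247 to 9270. No 23 nt pair had a smaller count above 3. When the reads on the T-DNA were taken alone, the ratio to the median was 1.61 for 22 nt, 1.38 for 24 nt and 1.33 for 21 nt, and outside the T-DNA it was 1.44, 1.01 and 1.00. On the T-DNA these classes ranked 1, 4 and 6 of 37 offsets. Outside it they ranked 2, 15 and 17, with 44 pairs of 22 nt against a highest value of 46. The 23 nt class went the other way, with a ratio of 0.76 on the T-DNA and 1.19 outside. This division was chosen after the data had been seen.

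**Figure D4:**
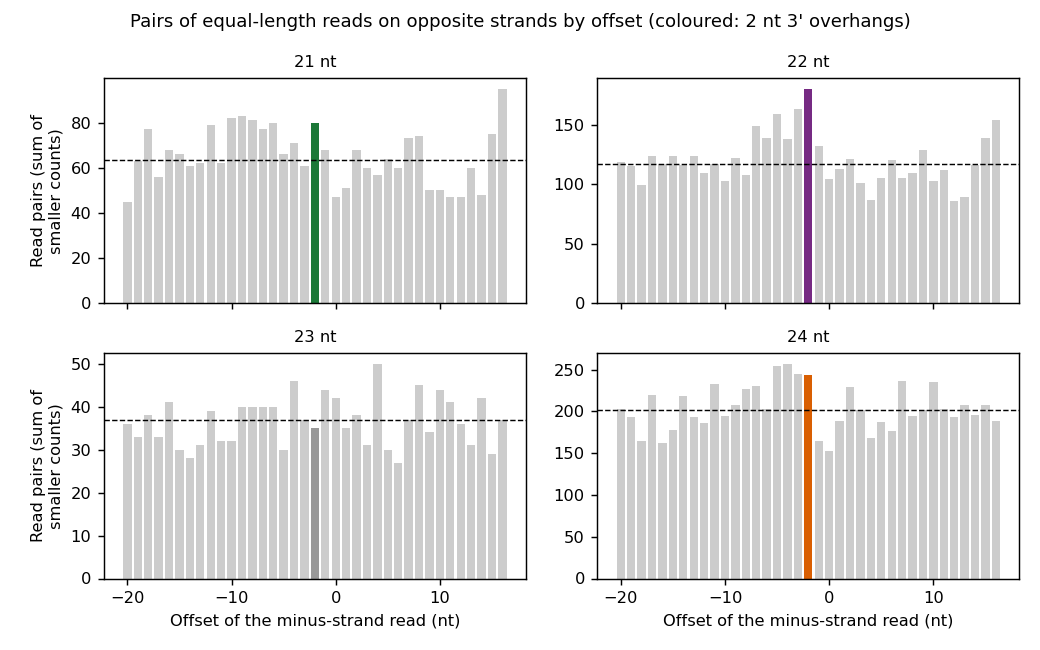
Number of opposite-strand pairs of equal length (y axis, sum of the smaller count of each pair) at each offset of the minus-strand read from the plus-strand read in nt, for 21, 22, 23 and 24 nt. The coloured bar is the offset of -2 nt that gives 2 nt 3′ overhangs, grey bars are the other 36 offsets and the dashed line is their median. Only at 22 nt is the coloured bar, at 180 pairs, the highest.

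Reads of unequal length can share a 2 nt overhang at 1 end only. Summed in the same way over 3′ ends of 1 class and 5′ ends of another on the opposite strand, the value at 2 nt was 360 for 22 nt with 22 nt, against a median of 237 and a highest value of 396 at the other offsets. Among the 12 combinations of unequal lengths, the ratio to the median ran from 0.78, for 3′ ends of 23 nt reads and 5′ ends of 24 nt reads, to 1.30, for 3′ ends of 22 nt and 5′ ends of 23 nt, and none ranked first among the 37 offsets.

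Reads were concentrated in few positions, in an order that depends on the measure. The 10 most frequent 5′ ends held 23.4% of reads at 21 nt, 18.3% at 22 nt, 10.4% at 23 nt and 17.4% at 24 nt. A total of 50% of the reads lay in 123 of 1513 5′ ends at 21 nt, 166 of 1962 at 22 nt, 198 of 1121 at 23 nt and 144 of 2430 at 24 nt. At an equal depth of 2283 reads, computed by formula, 995 5′ ends were expected at 21 nt, 1067 at 22 nt, 1121 at 23 nt and 1015 at 24 nt. By this measure the 23 nt class was the most dispersed of the 4.

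The most frequent reads of the short classes all lay on the T-DNA, apart from 1. At 21 nt the first was the plus-strand read at 9899 to 9919 in nptII, with 473 copies or 10.7% of the class (9.80 to 11.6), and the next were 9584 to 9604 on the minus strand with 102, 7305 to 7325 on the plus strand with 88, 9494 to 9514 with 73 and 9357 to 9377 with 72. At 22 nt the first was the plus-strand read at 9898 to 9919, with 405 copies or 6.73% (6.11 to 7.39), and the next were 9493 to 9514 with 200, 7598 to 7619 on the minus strand with 73, 1563 to 1584 on the backbone with 69 and 9856 to 9877 on the minus strand with 63. The leading 21 and 22 nt reads therefore ended at the same base and differed by 1 base at the 5′ end. At 24 nt the first was the plus-strand backbone read at 2003 to 2026, with 572 copies or 5.68% (5.23 to 6.15), followed by 1622 to 1645 with 220, 9896 to 9919 in nptII with 152, 1921 to 1944 with 127 and 9372 to 9395 on the minus strand with 125. The third of these ended at the same base as the leading 21 and 22 nt reads. At 23 nt the 3 first reads, at 1161 to 1183, 1922 to 1944 and 12200 to 12222, had 32 copies each, followed by 8604 to 8626 with 23 and 443 to 465 with 22, and 4 of these 5 lay on the backbone.

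This pattern was general, in that different lengths shared their 3′ ends more than their 5′ ends. Of the 21 nt reads, 68.9% (67.5 to 70.3) ended at a base where a 22 nt read of the same strand also ended, and 41.2% (39.7 to 42.7) began at a base where a 22 nt read began. After the 22 nt class had been moved by 1 to 10 nt in either direction, a median of 13.2% still matched. Left out were the move that aligns the other end and the equal move in the opposite direction, which kept 18 displacements. Of the 24 nt reads, 59.4% (58.5 to 60.4) shared the 3′ end and 24.6% (23.7 to 25.4) the 5′ end with the 22 nt class, against a displaced median of 14.2%. They shared the 3′ end with the 21 nt class in 50.9% and the 5′ end in 24.7%, and with the 23 nt class in 53.4% and 25.2%. Of the 22 nt reads, 66.8% shared a 3′ end and 39.1% a 5′ end with 24 nt reads, and 63.0% and 37.0% with 21 nt reads. Of the 23 nt reads, 65.4% shared a 3′ end and 38.9% a 5′ end with 24 nt reads. The 3′ share was above the 5′ share in all 12 ordered class pairs, by 1.40 to 2.42 times. It was also above the share at each of the 18 displacements kept, in all 12 class pairs. The 5′ share was so in 5 and lay within the displaced range in 7. Among these 7 was 24 nt with 22 nt, where the highest displacement gave 28.2%. The 5′ range keeps shifts that lie beside the shared 3′ end, so the contrast of 12 and 5 is partly built in. For 21 nt with 22 nt the highest displaced value was 35.4% in the 5′ range and 27.2% in the 3′ range. The same 35.4% was the 3′ value at a shift of 1 nt, a move left out of the 3′ range. The 3′ share was above the 5′ share in all 12 also when identical reads counted once, by 1.32 to 1.89 times, when only reads without mismatch were used, and without the most frequent 5′ end of each class.

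**Figure D5:**
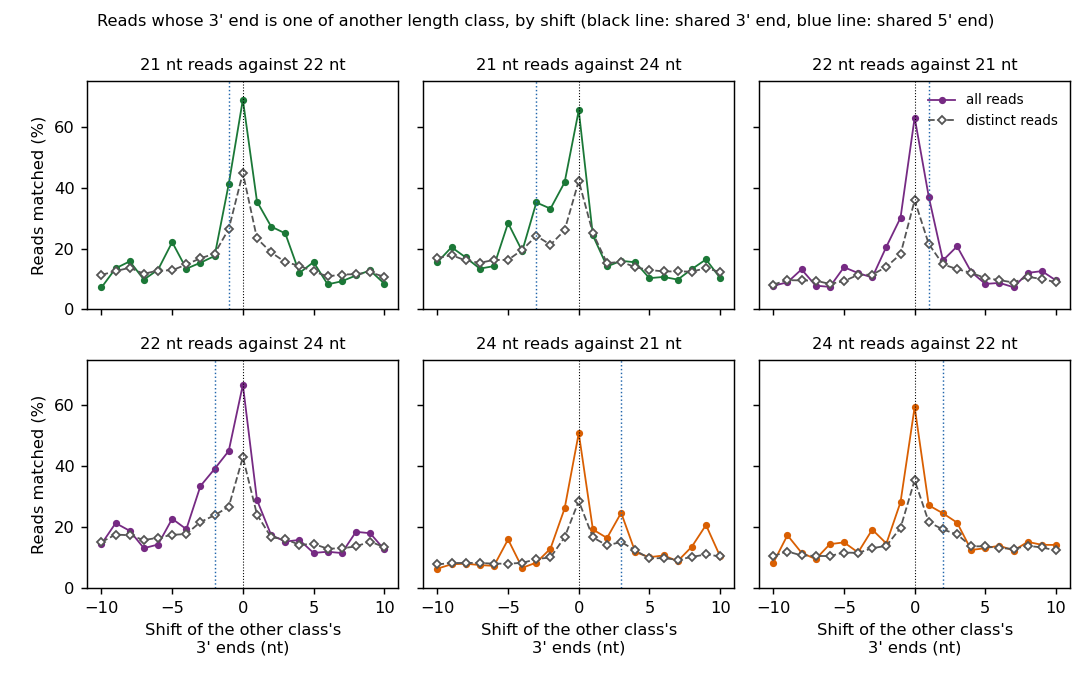
Share of the reads of 1 class (y axis, %) whose 3′ end is a 3′ end of another class on the same strand after that class is shifted by the number of nt on the x axis, for 6 ordered pairs of the 21, 22 and 24 nt classes. Filled points are all reads and open points distinct reads; the black dotted line marks a shared 3′ end and the blue one a shared 5′ end. Every panel peaks at the shared 3′ end, at 50.9% to 68.9% of reads, and the shared 5′ end is lower.

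Pooled over the 4 classes, the 22798 reads used 5391 different 5′ ends and 4670 different 3′ ends. A total of 50% of the reads lay in 381 of the 5′ ends and in 235 of the 3′ ends. All 4 lengths used 194 of the 3′ ends, which held 36.8% of the reads (36.1 to 37.4), but 53 of the 5′ ends, which held 11.5% (11.1 to 12.0). Conversely, ends used by 1 length alone held 22.3% of reads by their 3′ end and 44.8% by their 5′ end. Among the 50 3′ ends with at least 50 reads, the leading length held a median of 69.4% of the reads and at least 90% in 8. Among the 42 5′ ends with at least 50 reads, the leading length held a median of 96.2% and at least 90% in 32. A frequent 5′ end was therefore mostly tied to 1 length, whereas a frequent 3′ end was often shared.

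The most frequent 3′ end was base 9919 on the plus strand, in nptII, with 1092 reads. Of these, 498 were 21 nt, 422 were 22 nt, 18 were 23 nt and 154 were 24 nt. The 3′ end at 9514, also in nptII, had 77 reads of 21 nt, 213 of 22 nt, 10 of 23 nt and 3 of 24 nt. At 7598 on the minus strand, between the 2 NOSt copies, 22 and 24 nt reads shared the end, with 73 and 96 reads beside 9 of 21 nt and 13 of 23 nt. At 1944, in the backbone upstream of nptIII, the long lengths shared it, with 133 reads of 24 nt and 33 of 23 nt beside 7 of 22 nt and 0 of 21 nt. The second most frequent 3′ end, at 2026, was the exception, with 572 reads of 24 nt among 600, or 95.3%.

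The 3′ ends also had a base preference in every class. The last base was C in 62.6% of reads at 21 nt, 57.7% at 22 nt, 40.6% at 23 nt and 59.5% at 24 nt, whereas C made up 21.2 to 22.6% of the bases inside the same reads. A was the last base in 9.86%, 11.8%, 14.4% and 7.30%, against 27.4 to 29.4% inside the reads. The second to last base was G in 43.3%, 45.6%, 40.5% and 57.6%, against 28.1 to 28.8% inside the reads. In distinct reads the last base was C in 48.3%, 47.9%, 38.0% and 49.5%. In SAIL_232 C ended 54.3% of 21 nt reads and 36.9% of 24 nt reads, and at 24 nt U was more frequent, at 44.4%, although in distinct 24 nt reads C was at 42.4% and U at 34.5%. The excess of shared 3′ ends was present on either side of this preference. Among 21 nt reads that did not end in C, 55.3% shared the 3′ end and 34.8% the 5′ end with the 22 nt class, and among those that did, 77.1% and 45.0%. Among 24 nt reads that did not end in C, 51.7% shared the 3′ end and 31.8% the 5′ end with the 22 nt class, and among those that did, 64.7% and 19.6%. The 3′ share was above the 5′ share in all 12 class pairs also for reads not ending in C, by 1.17 to 3.05 times. The source of the base preference was not tested.

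The first base differed between classes. U was the most frequent first base at 21 nt, with 39.97% (38.5 to 41.4), and at 22 nt, with 35.1% (33.9 to 36.4), against 20.7% and 20.3% inside the same reads. A was the most frequent at 24 nt, with 33.5% (32.5 to 34.4), and at 23 nt, with 30.8% (28.9 to 32.8), against 28.5% and 27.4% inside the reads. G was the rarest first base of the 21 and 22 nt reads, at 14.3% and 15.1%, and 21.0% of the 24 nt reads began with it, against 28.1 to 28.7% inside the reads of these classes. In distinct reads U began 30.5% of 21 nt and 29.9% of 22 nt reads, and A began 32.1% of 24 nt reads. At 23 nt A began 27.7% of distinct reads (25.2 to 30.3), against 26.2% inside them, so that no excess of A was seen there. With the pile of reads that begin at base 9899 left out, U began 32.7% of 21 nt reads.

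On the same strand, 5′ ends lay exactly 1 read length apart slightly more often than at nearby distances. The sum of smaller counts at a spacing of 21 nt was 188 for 21 nt reads, against a median of 154.5 and a highest value of 184 at the 10 spacings within 5 nt of it. It was 295 for 22 nt reads at 22 nt, against a median of 265.5 and a highest value of 289, and 103 for 23 nt reads at 23 nt, against 91.5 and 102. For 24 nt reads at 24 nt it was 525, against 407 and 475. The read length was the first of the 11 spacings in all 4 classes, and also by distinct 5′ ends, with ratios to the median from 1.13 to 1.21. The margins over the next spacing were small at 21, 22 and 23 nt. Without the most frequent 5′ end, the 23 nt value of 102 only equalled the highest nearby value. Among all 51 spacings from 10 to 60 nt, the read length ranked 1 at 21 nt, 3 at 22 nt, 4 at 23 nt and 3 at 24 nt. Spacings of 1 nt were far more frequent, with 482, 833, 291 and 1400.

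The methods state mapping without mismatches for the Geneious aligner, yet the table holds reads that differ from the plasmid sequence, unevenly spread over the classes. They made up 6.76% of 21 nt reads (6.04 to 7.54), 7.91% of 22 nt, 16.7% of 23 nt (15.2 to 18.3) and 14.1% of 24 nt. The last base differed in 9.37% of 23 nt reads (8.21 to 10.6), against 1.33% of 21 nt, 3.02% of 22 nt and 2.37% of 24 nt. In the 24 nt class the difference was mostly inside the read, in 8.86%, and 1 site accounted for most of it. At plasmid position 2018, counted from the first base of the deposited plasmid sequence, all 732 reads that cover it carried C2018A, in 44 different placements and including the most frequent 24 nt read. It was the only position of 7272 covered by at least 20 reads at which every read differed. The read pile at 2003 to 2026 is therefore lost when only reads equal to the deposited sequence are counted.

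In the SAIL_232 library the same measures could be taken from 1583 reads of 21 to 24 nt only, and its most frequent length was 21 nt. Of the 21 nt reads of SALK_059379, 68.9% shared a 3′ end and 41.2% a 5′ end with the 22 nt class, and of those of SAIL_232, 26.9% (23.8 to 30.3) and 18.9% (16.2 to 21.9). Of the 24 nt reads of SALK_059379, 59.4% shared a 3′ end and 24.6% a 5′ end with the 22 nt class, and of those of SAIL_232, 28.7% (24.3 to 33.4) and 7.73% (5.31 to 10.8). Shared ends become more frequent with depth, so these levels cannot be compared between the libraries, and only the order of 3′ above 5′ is set side by side. Pairs with 2 nt overhangs were too few in SAIL_232 for a profile, with 18 at 21 nt, 5 at 22 nt and 5 at 24 nt. The first base was A in 57.4% of its 24 nt reads, against 34.5% inside the same reads. In distinct 24 nt reads of SAIL_232 it was A in 44.1% (36.6 to 51.7), against 29.7% inside them.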

How the data were processed

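Small RNA of whole rosettes was sequenced from 1 library of SALK_059379 and 1 of SAIL_232, among the 39 samples of the series. The authors size-selected RNA on a gel and trimmed adapters. They aligned reads to the plasmid with Bowtie2 (2.3.0 in the submitters' processing notes) and Geneious, with Geneious set to allow no mismatch. The matching reads were mapped again to TAIR10 as a check against off-target reads, and no normalization was applied. The deposited tables hold no counts; each row is 1 read with its strand, first and last plasmid position and bases, and counts were made here by counting rows. Sequencing totals were not used here, and the depth is the 25606 reads listed on pROK2 and 3175 on pCSA110. The other files were not used.

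Reads of both strands are written in plus-strand orientation (12014 plus-strand and 9943 minus-strand pROK2 reads equalled the plasmid as written and 0 as reverse complement), so the strand was taken from its column and bases were turned accordingly. Elements were located on the deposited plasmid: borders as 25 bp repeats, nptII and nptIII as reading frames, NOSt as the longest identical repeat, with reads assigned by their midpoint. Windows were 250 nt. For each class the 3 highest windows, 5 most frequent reads, most frequent 5′ end and 3 largest pairs were named, with windows one-sided in 21, 22 and 24 nt and those of extreme 24 nt share (at least 100 reads); frequent 3′ ends and windows of opposite sides were added after their values were seen, as were class shares by element in distinct reads and spacings of distinct 5′ ends. Counts have exact Poisson and shares exact Clopper-Pearson 95% intervals. Members, lists and measures were chosen with earlier results of these data known. Measures were checked on simulated reads. Python 3.11.15 was used with numpy 2.4.6, pandas 2.3.3, scipy 1.17.1 and matplotlib 3.10.9. Read sequences of the vector are not printed.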

Additional observations from a re-analysis of the deposited data

Results flagged for a closer look

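Outside the 4 length classes, the SALK_059379 library held 2808 further reads (Poisson 95% interval 2705 to 2914). Of these, 1109 had 16 to 20 nt and 1699 had 25 to 47 nt. They entered no comparison of classes.

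Reads that carry C2018A, counted from the first base of the deposited plasmid sequence, numbered 732 of the 732 reads over that position, so that no read of this library matched the deposited base. They included 633 reads of 24 nt, 41 of 23 nt, 11 of 22 nt and 16 of 21 nt. The source of the difference was not tested.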

How the results depend on the processing

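With 1 library no replicate could be left out, and no paired analysis was possible because no result comes from a test. Of 272 alternative values, 117 stayed within the counting interval, within 0.1 for a correlation or within 1.5 times for a ratio or count, and 155 moved further. The 155 include all displaced-end medians, which are background values, and counts of 5′ ends at lower depth, which must fall. Those moves are built in and do not measure dependence on the processing. Only the correlations could change sign, and 0 of them did. Counting identical reads once moved most results. It gave a 24 nt share of 35.9%, one-sided windows of 23.7% at 21 nt, 22.2% at 22 nt and 30.2% at 24 nt, a correlation of 0.81 between 22 and 24 nt, 3′ and 5′ ends shared with 22 nt of 44.8% and 26.4% for 21 nt and 35.4% and 19.3% for 24 nt, first base U in 30.5% of 21 nt and A in 32.1% of 24 nt reads. Reads without mismatch gave a 24 nt share of 42.8%, 14.2% of 24 nt reads in the 10 most frequent 5′ ends, first base A in 36.1% of them, 3′ and 5′ shares of 57.1% and 22.1% for 24 nt with 22 nt, and a 5′ share of 38.6% for 21 nt with 22 nt. Without the most frequent 5′ ends, the 22 and 24 nt correlation was 0.69, the 3′ and 5′ shares with 22 nt were 65.0% and 33.6% for 21 nt and 55.4% and 26.0% for 24 nt, first base U was 32.7% at 21 nt and A 35.5% at 24 nt. The correlation of 22 and 24 nt was 0.78 on the log2(count + 1) scale, 0.40 in windows of 100 nt and 0.71 on the backbone. That of 23 and 24 nt was 0.76 in windows of 100 nt and 0.68 on the T-DNA, and that of 21 and 22 nt was 0.62 on the backbone. Displaced ends gave medians of 13.2% for both ends of 21 nt and 14.2% for both ends of 24 nt with 22 nt. Reads not ending in C, an alternative chosen after seeing the data, gave 55.3% and 34.8% for 21 nt and 51.7% and 31.8% for 24 nt. At the depth of the 23 nt class, 995 5′ ends were expected at 21 nt, against 1513 observed, and 1015 at 24 nt, against 2430. The cause of each move was not tested, except that fewer reads leave fewer ends. Depth limits the 23 nt class most, with 32 windows of at least 20 reads. No ratio of pairs at the 2 nt overhang moved by over 1.5 times under its alternatives, but this rule cannot show that an excess was kept. The main ratios ran only from 0.95 to 1.55, so an excess can be lost or nearly lost within 1.5 times. Outside the T-DNA the ratios of 1.00 at 21 nt and 1.01 at 24 nt counted as unmoved.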
